A study of Mus musculus with 12 samples.

Results

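The circadian clock genes of the mouse colon were examined in wild-type mice and in Parp1-/- mice, with and without chemical injury of the colon. The genes sought were Arntl (also called Bmal1), Clock, Npas2, Per1, Per2, Per3, Cry1, Nr1d1, Nr1d2 and Dbp, chosen by their annotated gene symbol. Of these 10 genes, 9 had a probe set that carried their symbol alone, 1 probe set each, among 21314 genes measured. The only probe set of Per2 also carries the symbol of another gene, so Per2 is named here without a value.

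Colon RNA of 12 mice aged 6 to 8 weeks was measured on Affymetrix arrays, 1 array per mouse. The 4 groups of 3 mice were wild-type mice on plain drinking water, wild-type mice that drank dextran sulfate sodium (DSS) at 4% over 7 days, Parp1-/- mice on water, and Parp1-/- mice given the same DSS. DSS is a sulfated polysaccharide that injures the colon lining and causes colitis in mice that drink it, and Parp1-/- mice lack the enzyme that builds ADP-ribose chains on proteins near DNA breaks. The Parp1-/- genotype is that of the whole animal, so a difference is not tied to 1 cell type. The sources used here do not give the time of day at which the mice were sampled, the strain, the sex or the light schedule. In RNA of colon tissue, fewer cells of a type and less RNA per cell cannot be told apart.

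The circadian clock is a loop of transcription factors that runs in nearly every cell, including those of the colon, with a period of about a day. The protein of Arntl pairs with that of Clock or Npas2, binds E-boxes and activates Per, Cry, Nr1d and Dbp genes. The Per and Cry proteins block that pair, and the nuclear receptors encoded by Nr1d1 and Nr1d2 repress Arntl, Clock and Npas2, so the activating genes and their targets peak at opposite times of day. Dbp and its relatives Tef and Hlf activate genes through D-boxes, at which the protein of Nfil3 represses. The Parp1 protein is known to bind Clock protein and attach ADP-ribose to it in mouse liver.

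The RefSeq sequences before the start sites of a pair of clock-controlled genes show these elements. That of Per3 is given because Per3 and Dbp, described below, had similar values over the arrays. Ciart, a repressor of the activating pair, is given because it holds the most E-boxes among the genes looked up. Those were the clock genes other than Per2, with Ciart, Tef, Nfil3, Cry2 and Hlf. Each sequence is the 250 bases before the start site in assembly GRCm38.p6, 5′ to 3′ on the strand of the gene. Per3 lies on the minus strand at chr4:151044666-151044915, and capitals mark its 2 D-boxes (TTATGTAA). Ciart lies on the minus strand at chr3:95882229-95882478, and capitals mark its 3 E-boxes (CACGTG).
Per3: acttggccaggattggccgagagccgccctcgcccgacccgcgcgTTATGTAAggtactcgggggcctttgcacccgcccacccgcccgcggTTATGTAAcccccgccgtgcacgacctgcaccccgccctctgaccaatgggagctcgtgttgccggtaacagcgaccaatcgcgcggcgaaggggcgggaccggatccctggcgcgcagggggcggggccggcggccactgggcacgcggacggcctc
Ciart: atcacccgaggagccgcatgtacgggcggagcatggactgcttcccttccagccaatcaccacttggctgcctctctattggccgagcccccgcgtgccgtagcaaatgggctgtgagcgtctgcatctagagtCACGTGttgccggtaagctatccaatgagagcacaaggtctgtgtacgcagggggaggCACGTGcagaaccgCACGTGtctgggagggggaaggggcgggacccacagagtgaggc

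The 2 D-boxes of Per3 begin 205 and 158 bases before its start site. On either strand, TTATGTAA was found in 0.819% of 32851 such windows of 250 bases and CACGTG in 6.02%. Of the 9 clock genes matched in the RefSeq table, Cry1 and Per1 also hold an E-box, 60 and 166 bases before the start. The nuclear receptor motif AGGTCA, which the proteins of Nr1d1 and Nr1d2 can bind, was found before Clock, Per1 and Nr1d2, and in 14% of all windows. A match is a run of letters and was not tested as a binding site.

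The deposited log2 values of each probe set have a median of 0 over the 12 arrays. They allow comparisons of arrays within a gene and none of levels between genes. Base 2 and larger values for more RNA were assumed, since the sources used here state neither. The mean of 14 housekeeping genes lay between -1.89 and -1.0 on 4 arrays (wild-type water 1, 2 and 3 and wild-type DSS 1) and between -0.02 and 0.42 on the other 8, and the SD over all probe sets was 0.666 to 0.871 against 0.256 to 0.394. Every comparison with wild-type water therefore also compares these kinds of array. Another 3 arrays, Parp1-/- water 2 and 3 and Parp1-/- DSS 1, had a smooth muscle marker mean of 2.76 to 2.77 against -0.56 to 0.06 on the other 9. The centring removes levels, so whether a marker of the colon is present or absent cannot be read from these values. Parp1 was at -0.41, 1.15 and 0.53 in wild-type mice on water, at 0.01, 0.51 and 0.77 in those given DSS, and between -0.22 and 0.03 on the 6 Parp1-/- arrays, so the array labelled wild-type water 1 had less Parp1 signal than any Parp1-/- array. The sources used here do not say which exons the Parp1 probes cover or which the mutation removes.

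All 6 DSS arrays lay above all 6 water arrays for Npas2 and below them for Dbp, although within the Parp1-/- mice alone neither gene passed the test (limma adjusted p = 0.0513 and 0.454). Over the average of both genotypes' responses, 3 clock genes rose (Npas2, Clock and Arntl) and 2 fell (Dbp and Per3). Those that rose are the activating arm, and those that fell are among its targets. Per1, Cry1, Nr1d1 and Nr1d2 did not pass the test in that average. The average was added after the data had been seen, and 4.64% of all genes passed in it, 4.15% higher and 0.493% lower. A gene passed, here and below, where limma's p-value adjusted by Benjamini-Hochberg over all 21314 genes was under 0.05, and errors of log2 differences are the model's standard errors. Without the 3 muscle-rich arrays Npas2 alone passed, while Clock was at 1.29 (adjusted p = 0.0901) and Dbp at -2.23 (adjusted p = 0.0609). Markers of other cells moved with the treatment: 5 of 7 neutrophil markers rose in the average (median 1.31), and their mean lay between -1.17 and -0.38 on the water arrays and between 0.15 and 1.82 on the DSS arrays. In that average, 3 of 6 macrophage markers (median 0.85), 5 of 10 colonocyte markers (0.83) and 5 of 7 goblet cell markers (0.87) also rose. The colonocyte and goblet cell medians were 1.73 and 1.66 in wild-type mice but 0.03 and 0.01 in Parp1-/- mice. The part of all these markers in the clock gene results was not tested.

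**Figure D1:**
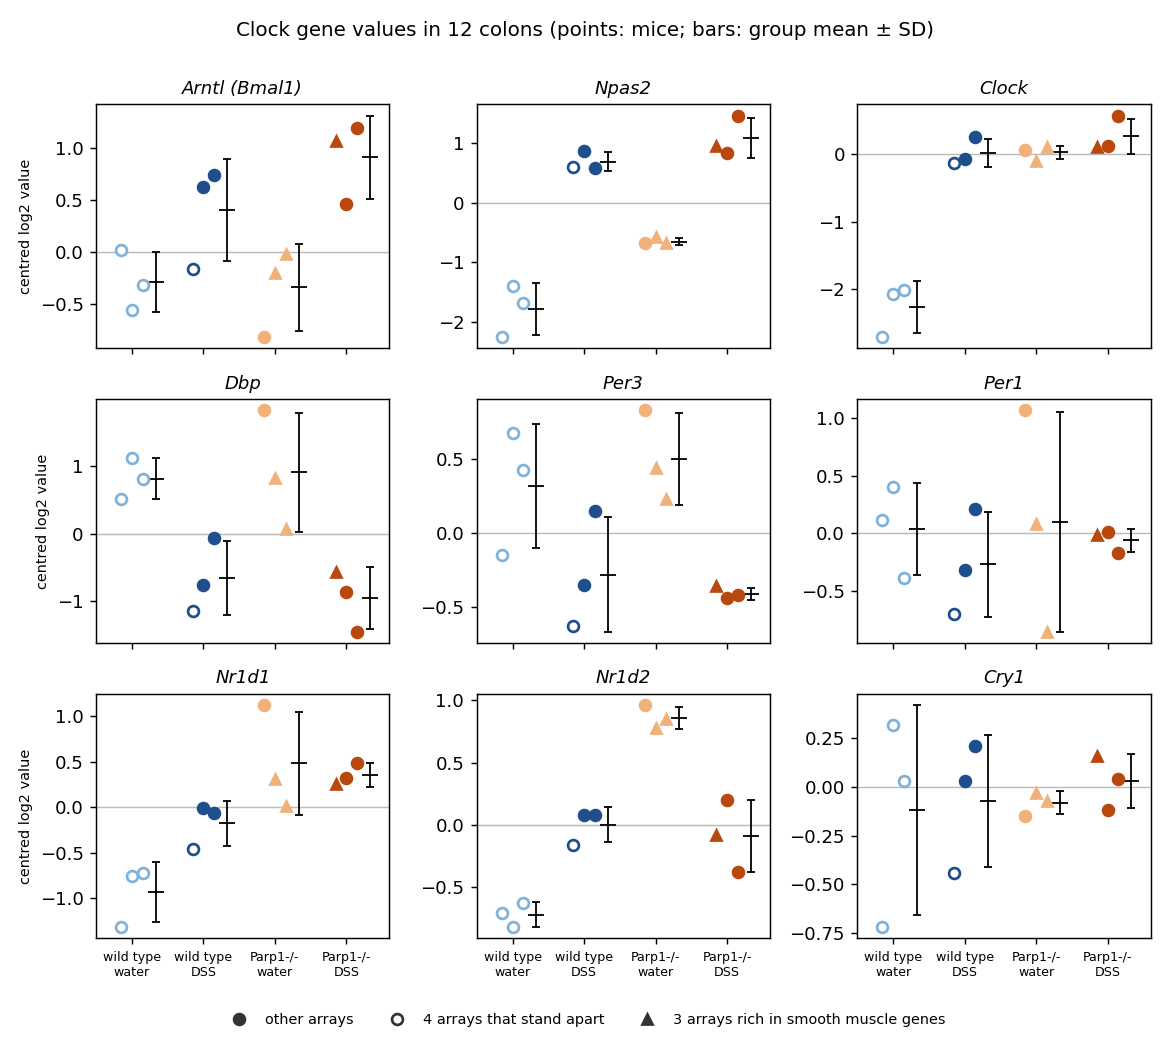
Centred log2 values of the 9 measured clock genes, 1 panel per gene, with 1 point per mouse in the 4 groups (open for the 4 arrays with low housekeeping values, triangles for the 3 muscle-rich arrays) and a bar for the group mean ± SD (n = 3). For Npas2 the 6 DSS arrays lie between 0.58 and 1.47, above all 6 water arrays, and for Dbp they lie between -1.46 and -0.07, below all 6 water arrays.

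Npas2 (Entrez 18143, chromosome 1) encodes a partner of the Arntl protein and stands in for Clock in many tissues. Its values were -2.26, -1.39 and -1.68 in wild-type mice on water and 0.60, 0.87 and 0.58 with DSS, and -0.68, -0.58 and -0.68 in Parp1-/- mice on water and 0.96, 0.84 and 1.47 with DSS. The 6 DSS arrays lay above the 6 water arrays, as did those of 0.666% of all genes, and the wild-type water arrays were the lowest. DSS against water was log2 2.46 ± 0.23 (SE, n = 3 mice per group) in wild-type mice, a 5.52-fold rise with a limma adjusted p of 0.000103. In Parp1-/- mice it was 1.73 ± 0.23, or 3.33-fold, with a limma adjusted p of 0.0513, just outside the threshold. That p was 0.0201 without wild-type water 1 and 0.0301 without wild-type DSS 1, and it missed the threshold in the 10 fits without another single array (0.057 to 0.291). It was 0.0395 in a fit of the 8 arrays other than the 4 with low housekeeping values and 1 without the 3 muscle-rich arrays. The wild-type difference was smaller under other scalings, at 1.48 after quantile normalization and 1.53 with array medians and spreads set equal (adjusted p = 0.0156 and 0.0829). The average of both responses was 2.10 ± 0.16, or 4.29-fold (limma adjusted p = 0.00024), and it ranged from 1.92 to 2.20 over all alternatives run, with adjusted p-values from 3.35e-06 to 0.0413.

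Clock (Entrez 12753, chromosome 5) encodes the main partner of the Arntl protein. It was at -2.72, -2.07 and -2.02 on the wild-type water arrays, -0.13, -0.06 and 0.26 on the wild-type DSS arrays, 0.06, -0.09 and 0.11 on the Parp1-/- water arrays and 0.11, 0.13 and 0.58 on the Parp1-/- DSS arrays. The 3 wild-type water arrays stood below the other 9, which spread from -0.13 to 0.58. Clock rose by log2 2.29 ± 0.22 with DSS in wild-type mice, or 4.91-fold (limma adjusted p = 0.000103), but by 1.14 after quantile normalization (adjusted p = 0.024) and 1.12 with array medians and spreads set equal (adjusted p = 0.0436). The Parp1-/- difference was 0.25 ± 0.22 (limma adjusted p = 1), although the 3 DSS arrays lay above the 3 water arrays, the nearest by less than the precision printed. The average response of 1.27 ± 0.15 (limma adjusted p = 0.00135) therefore came mostly from the wild-type mice.

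Arntl (Entrez 11865, chromosome 7) encodes the partner that the loop cannot run without. It was at 0.02, -0.56 and -0.32 in wild-type mice on water and -0.16, 0.62 and 0.74 with DSS, and -0.82, -0.20 and -0.02 in Parp1-/- mice on water and 1.07, 0.46 and 1.19 with DSS. The groups did not overlap in Parp1-/- mice, whereas in wild-type mice DSS 1 lay within the water arrays. The differences were log2 0.69 ± 0.30 in wild-type mice (limma adjusted p = 0.155) and 1.25 ± 0.30 in Parp1-/- mice (limma adjusted p = 0.556). Without wild-type DSS 1 the wild-type difference was 0.97 with an adjusted p of 0.0276. The average of both was 0.97 ± 0.21, or 1.96-fold (limma adjusted p = 0.0263). With the 4 arrays of low housekeeping values as a block it was 0.69 and did not pass (adjusted p = 0.134). It also did not pass without any 1 of wild-type water 2 or 3, wild-type DSS 2 or 3, Parp1-/- water 1 or 2, or Parp1-/- DSS 1 or 3, with values from 0.85 to 1.0 and adjusted p-values from 0.0522 to 0.0805.

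Dbp (Entrez 13170, chromosome 7) is a direct target of the activating pair and one of the most strongly cycling genes in many tissues. Its values were 0.52, 1.12 and 0.82 on the wild-type water arrays, -1.14, -0.76 and -0.07 on the wild-type DSS arrays, 1.83, 0.83 and 0.07 on the Parp1-/- water arrays and -0.56, -0.86 and -1.46 on the Parp1-/- DSS arrays. All DSS arrays were below all water arrays, as for 0.122% of all genes, and the 3 Parp1-/- water arrays spread over more than the whole wild-type water range. Dbp fell by 1.48 ± 0.42 on the log2 scale in wild-type mice, with a limma adjusted p of 0.0409, and the difference in Parp1-/- mice was -1.87 ± 0.42 with a limma adjusted p of 0.454. The wild-type call was lost without any 1 of wild-type water 1, 2 or 3, wild-type DSS 1 or 2, Parp1-/- water 2, or Parp1-/- DSS 1 or 2, with values from -1.63 to -1.23 and adjusted p-values from 0.0522 to 0.127. After quantile normalization the wild-type difference was -1.34, and with array medians and spreads set equal -0.95 (adjusted p = 0.259 and 0.647). In the average of both genotypes Dbp fell by 1.67 ± 0.30, or 3.19-fold (limma adjusted p = 0.00866). That call held whichever single array was left out and after quantile normalization (-2.16, adjusted p = 0.0107). It was lost with array medians and spreads set equal (-2.12, adjusted p = 0.0889).

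Per3 (Entrez 18628, chromosome 4) encodes a Period protein that is a weaker repressor of the loop than the other Period proteins. It was at -0.15, 0.68 and 0.43 in wild-type mice on water and -0.63, -0.35 and 0.15 with DSS, and 0.83, 0.44 and 0.23 in Parp1-/- mice on water and -0.36, -0.44 and -0.42 with DSS. The Parp1-/- groups did not overlap, and the wild-type groups did. The differences were log2 -0.60 ± 0.25 (limma adjusted p = 0.142) and -0.90 ± 0.25 (limma adjusted p = 0.86), and the average, -0.75 ± 0.18, passed (limma adjusted p = 0.0383). It did not pass without any 1 of wild-type water 2 or 3, wild-type DSS 2, or any Parp1-/- array, with values from -0.82 to -0.66 and adjusted p-values from 0.0569 to 0.101.

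Per1 (Entrez 18626, chromosome 11), a core Period repressor that glucocorticoids also induce, was at 0.12, 0.40 and -0.39 in wild-type mice on water and -0.70, -0.32 and 0.21 with DSS. The Parp1-/- values were 1.07, 0.08 and -0.86 on water and -0.01, 0.01 and -0.17 with DSS. The groups overlapped in both genotypes, and the water arrays of Parp1-/- mice spanned all other values of this gene. The differences of -0.32 ± 0.41 and -0.15 ± 0.41 were smaller than their errors. Cry1 (Entrez 12952, chromosome 10), a cryptochrome that closes the loop with the Period proteins, differed by 0.05 ± 0.25 and 0.11 ± 0.25, with all arrays between -0.72 and 0.32. At errors of this size, moderate changes of Per1 and Cry1 could not be detected.

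Nr1d2 (Entrez 353187, chromosome 14) encodes the nuclear receptor REV-ERB beta, a repressor of Arntl. It was at -0.71, -0.82 and -0.63 on the wild-type water arrays, -0.16, 0.08 and 0.08 on the wild-type DSS arrays, 0.96, 0.78 and 0.85 on the Parp1-/- water arrays and -0.08, 0.20 and -0.38 on the Parp1-/- DSS arrays. The 2 water groups were the lowest and the highest of the 4, with the DSS groups between them. Nr1d2 rose by log2 0.72 ± 0.17 with DSS in wild-type mice (limma adjusted p = 0.018), a call lost without wild-type DSS 2 (0.68, adjusted p = 0.0772) or DSS 3 (0.68, adjusted p = 0.0535). It was at 0.42 after quantile normalization and 0.40 with array medians and spreads set equal, where it did not pass (limma adjusted p = 0.531 and 0.615). A fit of only the groups compared did not pass it either (limma adjusted p = 0.144). In Parp1-/- mice the difference was -0.95 ± 0.17, with no overlap between the groups and a limma adjusted p of 0.165.

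Nr1d1 (Entrez 217166, chromosome 11) encodes REV-ERB alpha, the other receptor of this pair. It was at -1.32, -0.76 and -0.72 in wild-type mice on water and -0.46, -0.01 and -0.06 with DSS, and 1.12, 0.31 and 0.01 in Parp1-/- mice on water and 0.25, 0.32 and 0.49 with DSS. The wild-type groups did not overlap and the Parp1-/- groups did. The differences were log2 0.76 ± 0.27 (limma adjusted p = 0.0935) and -0.12 ± 0.27 (limma adjusted p = 1). The wild-type difference passed without wild-type DSS 1 (0.90, adjusted p = 0.0411) or without Parp1-/- water 1 (0.76, adjusted p = 0.0445).

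In wild-type mice, 3 of the 9 clock genes thus rose with DSS (Npas2, Clock and Nr1d2) and 1 fell (Dbp), where 13% of all genes passed, 8.89% higher and 4.16% lower. The arrays did not overlap for 5 clock genes, 4 higher (11.4% of all genes) and 1 lower (12.2%), where 23.6% of all genes did not overlap. The median difference of the 9 was log2 0.69, against -0.05 over all genes. Leaving out 1 array gave between 2 genes (without wild-type DSS 2) and 5 genes (without wild-type DSS 1). The calls over all genes were 1894 higher and 887 lower, and 197 higher and 10 lower after quantile normalization, where Clock and Npas2 passed. Housekeeping genes moved with this comparison: 8 of 14 rose, with a median of 1.21, and so did 8 of 10 markers of colonocytes (median 1.73). Their part in the changes of Clock, Npas2, Nr1d2 and Dbp was not tested.

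Wild-type DSS 1 had low housekeeping values like the wild-type water arrays, with a mean of -1.19 against -1.89 to -1.0. It was not like them in its cell markers. Its colonocyte marker mean was -0.56 against -1.65 to -1.49, and its goblet cell marker mean was -0.75 against -1.92 to -1.61. The part of these marker gaps in the differences below was not tested. Against the mean of the water arrays, this array alone was higher in Npas2 by log2 2.38 and in Clock by 2.14, and its Dbp differed by -1.96, its Per3 by -0.95 and its Arntl by 0.12. In a fit with these 4 arrays as a block, the wild-type differences of Npas2 and Clock were 2.38 and 2.14, with limma adjusted p-values of 0.00409 and 0.00423, whereas Nr1d2 (0.57, adjusted p = 0.181) and Dbp (-1.96, adjusted p = 0.0841) did not pass. The block was chosen after seeing the data and rests on 1 DSS array. A fit of those 4 arrays alone gave the same differences of Npas2 and Clock with adjusted p-values of 0.0843 and 0.0998, so neither passed there.

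No clock gene passed in Parp1-/- mice in DSS against water, in which 0.00938% of all genes did (Clca4b and Nos2, neither a clock gene), while 5 of the 9 had an unadjusted p under 0.05 (609 of all genes). The arrays of the 2 groups did not overlap for 6 clock genes, against 12.5% of all genes. Npas2, Arntl and Clock were above (7.82% of all genes), and Dbp, Per3 and Nr1d2 below (4.7%). With the groups set side by side, smooth muscle markers were at 2.77 and 2.76 in water 2 and 3 and at 2.77 in DSS 1. Among these 3 arrays DSS differed from the water mean by log2 1.59 for Npas2, 1.18 for Arntl, -1.01 for Dbp, -0.69 for Per3 and -0.90 for Nr1d2. Among the other 3 Parp1-/- arrays, the mean of DSS 2 and 3 differed from water 1 by 1.83, 1.64, -2.99, -1.26 and -1.05 for the same genes. For these 5 genes and Clock (0.10 and 0.29) the 2 groups did not overlap, so the same direction in both sets was fixed in advance. It therefore says nothing about muscle content. Where the groups overlapped, Cry1 kept 1 direction (0.21 and 0.11), whereas Per1 (0.38 and -1.15) and Nr1d1 (0.09 and -0.71) did not. Each of these comparisons has 1 array in 1 group and no test.

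**Figure D2:**
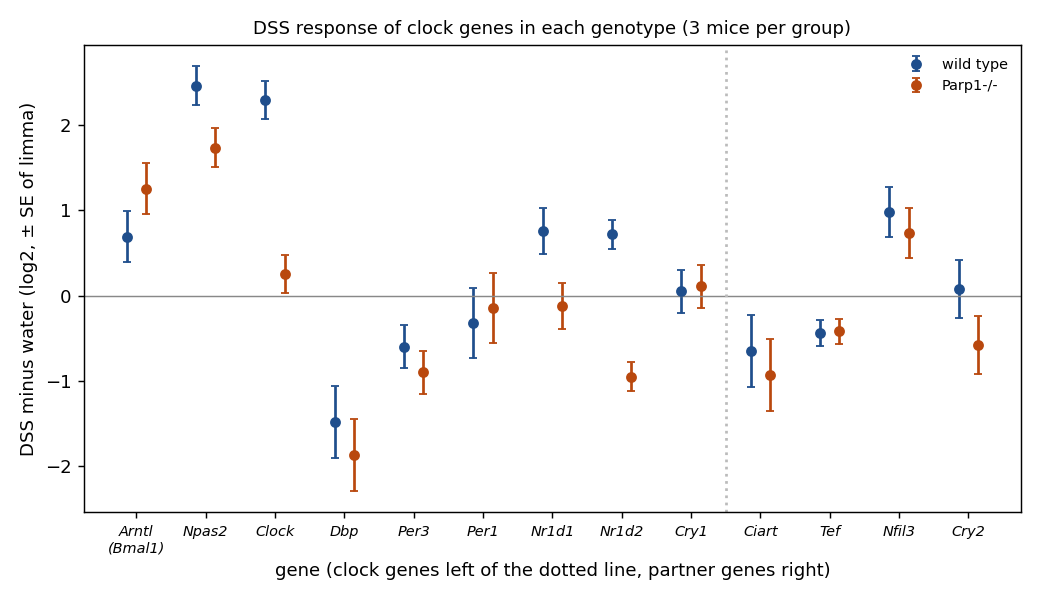
Log2 difference between DSS and water, with the standard error of limma (3 mice per group), for the measured clock genes left of the dotted line and Ciart, Tef, Nfil3 and Cry2 right of it, in wild-type and in Parp1-/- mice. Npas2 and Arntl lie above 0 and Dbp and Per3 below 0 in both genotypes, while Clock at 2.29 and Nr1d2 at 0.72 in wild-type mice stand against 0.25 and -0.95 in Parp1-/- mice.

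As a description of the loop on each array, the mean of the activating genes (Arntl, Clock and Npas2) minus the mean of the 6 others was taken on the centred log2 scale. It was -1.28, -1.50 and -1.26 on the wild-type water arrays, 0.69, 0.70 and 0.44 on the wild-type DSS arrays, -1.42, -0.69 and -0.23 on the Parp1-/- water arrays and 0.81, 0.62 and 1.39 on the Parp1-/- DSS arrays. Every DSS array was above every water array. The group means were -1.35 ± 0.13 (SD, n = 3), 0.61 ± 0.15, -0.78 ± 0.60 and 0.94 ± 0.40 in that order. No test was made of this score, since the genes in it were chosen with earlier results of these data known. Parp1-/- water had the widest spread, and its array 1 was the highest of all 12 arrays for Dbp, Per1, Per3, Nr1d1, Nr1d2 and Ciart.

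**Figure D3:**
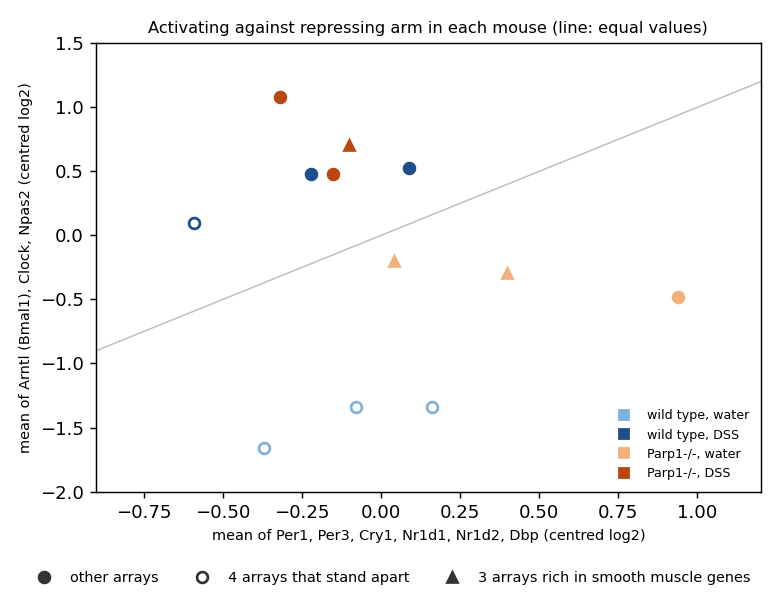
Mean of Arntl, Clock and Npas2 (vertical) against mean of Per1, Per3, Cry1, Nr1d1, Nr1d2 and Dbp (horizontal) on each array, in centred log2 units, with 1 point per mouse coloured by group, open for the 4 arrays with low housekeeping values and a triangle for the 3 muscle-rich arrays, and a line at equal values. The 6 DSS arrays lie above the line, by 0.44 to 1.39, and the 6 water arrays below it, by -1.50 to -0.23.

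In water, 4 of the 9 clock genes were higher in Parp1-/- than in wild-type mice, none was lower, where 31.6% of all genes passed, 17.9% higher and 13.7% lower. Those 4 genes were also the ones whose arrays did not overlap, all higher, where 55.4% of all genes did not overlap (26.2% higher and 29.2% lower). The calls over all genes were 3813 higher and 2912 lower, or 2163 higher and 331 lower with array medians and spreads set equal. Clock was higher by log2 2.30 ± 0.22 (limma adjusted p = 0.000112), Nr1d2 by 1.59 ± 0.17 (limma adjusted p = 0.000179) and Nr1d1 by 1.41 ± 0.27 (limma adjusted p = 0.0045). Npas2 was higher by 1.13 ± 0.23 (limma adjusted p = 0.00577), but at -0.35 after quantile normalization and at -0.15 with array medians and spreads set equal. Arntl, Per1, Per3, Cry1 and Dbp differed by -0.06 to 0.18, within their errors of 0.25 to 0.42.

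The wild-type water arrays are all of the kind with low housekeeping values and the Parp1-/- water arrays are all of the other kind, so genotype and kind of array cannot be told apart in water within this comparison. Of 14 housekeeping genes, 10 were also higher in Parp1-/- water, with a median of 1.43. All 10 colonocyte markers and all 7 goblet cell markers were too, with medians of 1.68 and 1.99. In the fit with the 4 arrays as a block, Clock alone passed, at 2.07 (limma adjusted p = 0.0469), and Nr1d2 was at 1.35 (limma adjusted p = 0.0686). Npas2 was at 1.01 and Nr1d1 at 0.98 there (limma adjusted p = 0.336 and 0.413).

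Under DSS, none of the 9 clock genes passed between genotypes, and neither did any other gene (0% of 21314 by limma, 593 with an unadjusted p under 0.05). With array weights, whose iterations did not converge, 6184 genes and 1 clock gene passed. The differences of the clock genes, Parp1-/- minus wild type, ran from -0.30 for Dbp to 0.53 for Nr1d1. The 3 Parp1-/- DSS arrays were above the 3 wild-type DSS arrays for Nr1d1 alone, as in 2.04% of all genes, and below them for no clock gene (4.52% of all genes, 6.55% in either direction).

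The response to DSS itself differed between genotypes for 2 clock genes, both lower in Parp1-/- mice, where 2.54% of all genes passed (2.33% lower). The difference of responses was log2 -2.05 ± 0.31 for Clock (limma adjusted p = 0.00661) and -1.67 ± 0.24 for Nr1d2 (limma adjusted p = 0.00566). Both differences contain the wild-type water arrays, and neither passed after quantile normalization (-0.84 and -1.59, limma adjusted p = 0.395 and 0.253). For Npas2 (-0.73 ± 0.33, limma adjusted p = 0.28) the difference turned to 0.86 after quantile normalization and to 1.31 with array medians and spreads set equal. The responses of Arntl, Dbp and Per3 differed by 0.56 ± 0.43, -0.39 ± 0.59 and -0.31 ± 0.36, none past the threshold, so responses of unequal size could not be shown for these 3 genes.

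Among 22 other components of the clock, 19 had a probe set of their own. Over the average of both DSS responses 2 of the 19 rose (Btrc and Nfil3) and 1 fell (Tef). In that average 4.15% of all genes passed higher and 0.493% lower. Nfil3, the repressor at D-boxes, was at -0.50, -0.16 and -0.38 in wild-type mice on water and 0.02, 0.64 and 1.26 with DSS, and -0.40, -0.02 and -0.04 in Parp1-/- mice on water and 0.98, 0.47 and 0.28 with DSS. Tef, an activator at D-boxes, was at 0.28, 0.23 and 0.55, then -0.06, -0.12 and -0.09, then 0.18, 0.23 and 0.02, then -0.14, -0.36 and -0.33 in the same groups. For both genes the 6 DSS arrays were separated from the 6 water arrays, with Nfil3 above (as for 0.666% of all genes) and Tef below (0.122%). The average differences were log2 0.86 ± 0.21 for Nfil3 (limma adjusted p = 0.0381) and -0.43 ± 0.10 for Tef (limma adjusted p = 0.037). With the 4 arrays as a block the averages were 0.55 and -0.42, and neither passed (adjusted p = 0.171 and 0.096). Nfil3 also rose in wild-type mice alone, by 0.98 ± 0.29 (limma adjusted p = 0.0468), a call that was kept with wild-type DSS 1 left out and lost without any other single array (0.67 to 1.08, adjusted p from 0.0508 to 0.14). It was 0.36 with the block (adjusted p = 0.549) and 0.23 with the receptor-gene covariate (adjusted p = 0.516). The average of Nfil3 passed without wild-type DSS 1 or 3 and that of Tef without wild-type water 1 or 2 or wild-type DSS 1, and with any other single array left out neither passed, with adjusted p-values from 0.0509 to 0.0971 for Nfil3 and from 0.0579 to 0.116 for Tef.

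Ciart, whose E-boxes are printed above, was at 0.36, 0.62 and 0.11 on the wild-type water arrays, -0.58, -0.41 and 0.14 on the wild-type DSS arrays, 1.79, 0.25 and -0.14 on the Parp1-/- water arrays and -0.11, -0.14 and -0.63 on the Parp1-/- DSS arrays. The groups overlapped in both genotypes, and the average difference of log2 -0.79 ± 0.29 did not pass (limma adjusted p = 0.179). The averages of Hlf (-0.27 ± 0.21), Rora (-0.21 ± 0.20), an activator of Arntl, Bhlhe40 (0.39 ± 0.23) and Bhlhe41 (-0.37 ± 0.12), repressors at E-boxes, did not pass either. Btrc, part of a ubiquitin ligase for Period proteins, rose by 1.97 ± 0.26 in wild-type DSS (limma adjusted p = 0.000694, and 0.0844 at 1.07 after quantile normalization), from -2.11, -1.47 and -1.28 in water to 0.31, 0.81 and -0.08. Its response differed between genotypes by -2.13 ± 0.36 (limma adjusted p = 0.0122), which did not pass with the block (-2.09, adjusted p = 0.0585) or after quantile normalization (-1.24, adjusted p = 0.353). Its average response was 0.90 ± 0.18 (limma adjusted p = 0.0164), and 0.45 after quantile normalization (adjusted p = 0.312).

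None of the 19 passed with DSS in Parp1-/- mice, and the smallest p-values belonged to Usp2 (-0.86 ± 0.29), a deubiquitinase, and Tef (-0.42 ± 0.15), both with a limma adjusted p of 1. Between genotypes in water, 4 of the 19 were higher in Parp1-/- mice and 1 was lower, where 31.6% of all genes passed. Those higher were Nono (1.95 ± 0.46), Btrc (1.81 ± 0.26), the deacetylase Sirt1 (1.0 ± 0.23) and Bhlhe40 (1.0 ± 0.33). With the 4 arrays as a block none of these 4 passed: Nono and Bhlhe40 turned to -0.07 and -0.19, Sirt1 was at 0.38 (adjusted p = 0.691) and Btrc at 1.75 (adjusted p = 0.134). The call of Bhlhe40 was kept without wild-type DSS 1 or 3 or Parp1-/- water 3 and lost without any other single array (0.82 to 1.06, adjusted p from 0.0526 to 0.113). Under DSS none differed.

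Of 15 outputs of the clock, 13 were measured. In wild-type mice 3 of them rose with DSS and 1 fell, where 13% of all genes passed. Nampt, the enzyme that limits NAD synthesis from nicotinamide, rose by log2 1.97 ± 0.34, the cell cycle inhibitor Cdkn1a by 1.68 ± 0.31 and the cell cycle kinase Wee1 by 1.40 ± 0.31, and Lonrf3 fell by 0.86 ± 0.17 (limma adjusted p from 0.00363 to 0.013). None of the 4 passed with the 4 arrays as a block, where Nampt was at 1.16, Cdkn1a at 1.24, Wee1 at 0.99 and Lonrf3 at -0.84 (adjusted p from 0.0719 to 0.196), or after quantile normalization, where they were at 1.13, 0.93, 0.70 and -0.85 (adjusted p from 0.106 to 0.349). Without wild-type DSS 2, Wee1 was at 1.30 with an adjusted p of 0.0612. No output passed in Parp1-/- mice, and over the average of both responses Cdkn1a alone did (1.13 ± 0.22, limma adjusted p = 0.013, but 0.081 at 0.91 with the block). In that average 4.64% of all genes passed. Of 12 glucocorticoid-induced genes, 1 rose in wild-type DSS, Nfkbia (1.47 ± 0.38, limma adjusted p = 0.0287), which encodes an inhibitor of NF-kappaB, and none passed in Parp1-/- mice. The call of Nfkbia was lost without wild-type water 1 or 2 or wild-type DSS 2 or 3 (1.11 to 1.53, adjusted p from 0.0518 to 0.122), with the block (0.67, adjusted p = 0.409) and after quantile normalization (1.03, adjusted p = 0.162). The medians of the outputs were 0.65 and -0.08 in wild-type and Parp1-/- mice, and those of the glucocorticoid-induced genes 0.29 and 0.05. Between genotypes in water, 5 outputs were higher in Parp1-/- mice, led by Nampt (2.27 ± 0.34), Wee1 (1.79 ± 0.31) and Cdkn1a (1.64 ± 0.31), 1 output was lower, and 1 glucocorticoid-induced gene was higher (Errfi1, 1.52 ± 0.38), where 31.6% of all genes passed. Genotype and kind of array cannot be told apart here either, and with the 4 arrays as a block none of these named genes passed, with Nampt at 1.05, Wee1 at 1.17, Cdkn1a at 0.98 and Errfi1 at 0.73 (adjusted p from 0.33 to 0.663). Herpud1 was also among the 5, at 1.45 ± 0.50, but at -0.75 with the block, and its call was lost without any array but wild-type water 2 or wild-type DSS 1 or 3 (1.30 to 1.57, adjusted p from 0.0541 to 0.124). The response of Nampt to DSS differed between genotypes by -2.29 ± 0.48 (limma adjusted p = 0.0302), a call lost without wild-type water 3, wild-type DSS 2 or 3, Parp1-/- water 2 or 3, or any Parp1-/- DSS array (-2.35 to -1.98, adjusted p from 0.0581 to 0.0921), with the block (-1.48, adjusted p = 0.138) and after quantile normalization (-1.68, adjusted p = 0.264).

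Over the 8 arrays with housekeeping values near 0 (5 DSS and 3 water), some clock genes were close to the extremes of likeness to one another and others were not. These correlations follow the treatment, share their arrays, and are given as a description. Predicted models, clones, small RNA genes and olfactory and vomeronasal receptors are not named among the most and least alike, but ranks count them. The gene least like Arntl among 21313 others was Nr1d2, whose product represses it (r = -0.96), while Dbp was the tenth lowest (r = -0.91), Per3 was at -0.88 and Npas2 at 0.91. Clock (0.57), Cry1 (0.73), Nr1d1 (-0.52) and Per1 (-0.43) were farther from the ends. Most like Arntl were Pxdc1 (0.99), Rnf125 (0.98), Rnf24 (0.97), Rab31 (0.96) and Prr13 (0.95). After Nr1d2, the lowest with Arntl were Hopx, Hykk, Tet1 and Vdac3, from -0.96 to -0.93. Over all 12 arrays, r between Arntl and Nr1d2 was -0.15, so that relation was seen only outside the 4 arrays with low housekeeping values.

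Nr1d2 was also the second lowest with Npas2 (r = -0.98, but 0.21 over all 12 arrays), beside Lmo4, Cfap410, Rabggtb and Atad1, and the genes most like Npas2 were Liph (0.99), Dhrs9 (0.98), Atg12, Dnajc24 and Sat1 (each 0.97). Clock (0.57), Per1 (-0.18) and Nr1d1 (-0.26) were less like Npas2 in size. Per3 was the second most like Dbp (r = 0.96), after Hykk (0.98) and before Gipc2, Klhl11 and Rps28 (each 0.95). Some other clock targets were near them, with Cry2 at 0.94, Ciart at 0.91, Tef at 0.90 and Nr1d2 at 0.87. Per1 at 0.61, Nr1d1 at 0.53 and Cry1 at -0.40 were farther off. The genes least like Dbp were Rapgef2 (-0.97), Rpl11 (-0.95), Rmdn2, Osbpl9 and Pxdc1 (each -0.94). Dbp and Per3 kept their relation over all 12 arrays (r = 0.93). Over those 12, Ciart was at 0.89 and Tef at 0.81 with Dbp, but Cry2 at 0.50 and Nr1d2 at 0.18.

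**Figure D4:**
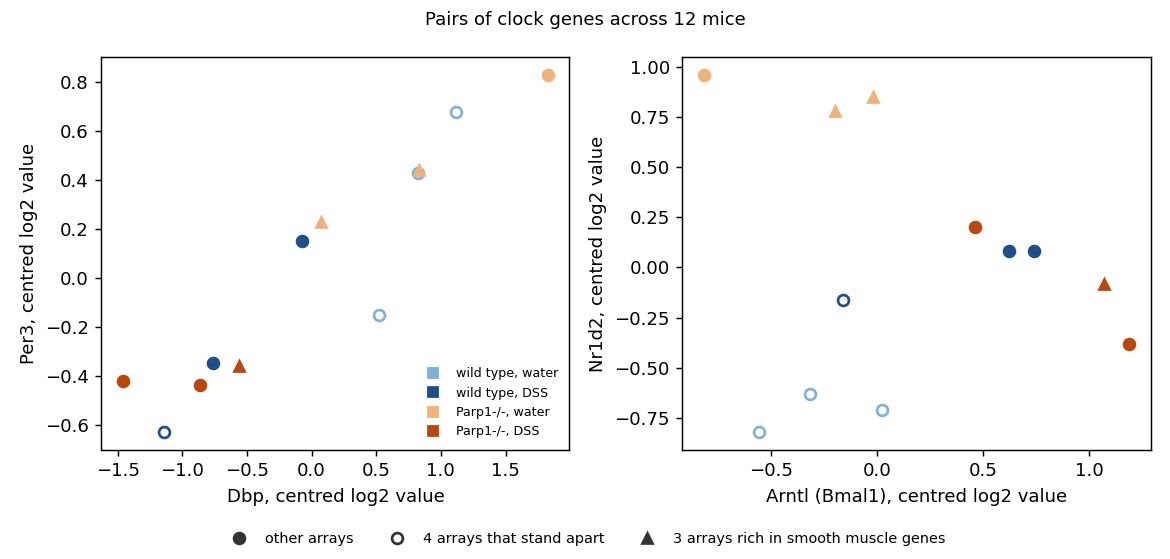
Centred log2 values on the 12 arrays, 1 point per mouse coloured by group, with the same point styles, of Per3 against Dbp (left) and of Nr1d2 against Arntl (right). Per3 and Dbp rise together over the 12 arrays (r = 0.93), and Nr1d2 runs opposite to Arntl over the 8 arrays with housekeeping values near 0 (r = -0.96) but not over all 12 (r = -0.15).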

How the data were processed

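Colon RNA was measured on Affymetrix arrays, per the labels. The deposited table holds log2 values of 31693 probe sets on 12 arrays, from -4.83 to 5.47. The sources used here do not give the authors' software, background correction and normalization. The median of each probe set was 0 to within 5e-07, so the table is centred; log base and direction stay unknown, and signal over background is unknown. The column medians ran from -0.0438 to 0.0999, and no 2 arrays were identical.

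Probe sets were named from GEO's annotation of the platform: 22586 have 1 gene symbol, 1756 several and 7351 none. Those with 1 symbol were averaged to 21314 genes. Group means were fitted over all 12 arrays by lmFit and eBayes of limma 3.58.1 under R 4.3.3 (two-sided), with Benjamini-Hochberg adjustment over all genes and a threshold of 0.05; the fit was tested on simulated data. Each mouse is 1 sample, and 3 mice per group limit the precision.

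The clock genes, lists and comparisons were chosen with earlier results of these data known. Every clock gene is described. Of each list, called genes are named, up to 4 by size, or otherwise the 2 of smallest p. Genes most like Arntl, Npas2 and Dbp are the 5 highest and lowest by Pearson's r over the 8 arrays. Predicted models, clones, small RNA genes and olfactory and vomeronasal receptors were not named there, while ranks count all 21313 other genes. The alternatives were other scalings (quantile, equal medians, equal medians and spreads), single probe sets, trend and robust moderation, array weights, fewer groups, 8 arrays, a receptor-gene covariate, a threshold of 0.01 and leaving out each array. Those added after seeing the data were a smooth muscle covariate, a block of the 4 arrays with low housekeeping values, those 4 arrays alone, a fit without the 3 muscle-rich arrays, and the average response. Sequences are RefSeq's, assembly GRCm38.p6.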

Additional observations from a re-analysis of the deposited data

Results flagged for a closer look

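The DSS responses of 2 clock genes differed between the genotypes by limma's test of the difference itself. For Clock, the response of Parp1-/- mice minus that of wild-type mice was log2 -2.05, and for Nr1d2 it was -1.67. Both involve the 3 wild-type water arrays, whose housekeeping means were -1.89, -1.0 and -1.32, against 0.07, 0.16 and 0.13 on the Parp1-/- water arrays, and the part of this gap in the differences was not tested. With the 4 arrays of low housekeeping values as a block, the differences were -1.90 for Clock and -1.52 for Nr1d2, with limma adjusted p-values of 0.0426 and 0.0327, though the wild-type response then rests on 1 DSS array. Neither passed after quantile normalization (-0.84 and -1.59, adjusted p = 0.395 and 0.253), with array medians and spreads set equal (-0.72 and -1.88, adjusted p = 0.429 and 0.158) or without the 3 muscle-rich arrays (-2.0 and -1.77, adjusted p = 0.358 and 0.312).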

How the results depend on the processing

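Of 25 clock gene differences with an unadjusted p under 0.05, 4 of 603 alternative values had the other sign, and of the 29 others, 66 of 702 did. The 4 were all of Npas2: Parp1-/- against wild type in water was -0.35 after quantile normalization and -0.15 with array medians and spreads set equal, and the difference of responses was 0.86 and 1.31. In water, Bhlhe40, Nono and Herpud1 turned to -0.20, -0.10 and -0.83 with the receptor median as a covariate and to -0.19, -0.07 and -0.75 with the 4 arrays of low housekeeping values as a block.

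In wild-type DSS against water, the 4 clock genes passed became 2 at an adjusted p of 0.01, after quantile normalization, with only the groups compared, with the receptor covariate and with the block, 1 with medians and spreads equal, 7 with array weights and 0 within those 4 arrays. Leaving out 1 array gave 2 to 5. Over all genes 2781 became 1025 at 0.01, 207 with quantile normalization, 8772 with array weights, 641 with only the groups compared, 151 with medians and spreads equal, 958 with the block, 27 within the 4 arrays and 1024 without the 3 muscle-rich arrays, and 1211 to 6865 with 1 array left out. In Parp1-/- mice, the 0 clock genes became 4 with quantile normalization, 5 with array weights and 1 with medians equal, 8 arrays, the receptor covariate, medians and spreads equal or the block, and 0 to 1 with 1 array left out. Over all genes 2 became 1 at 0.01, 118 with quantile normalization, 5 with medians equal, 7 with trend and robust moderation, 1457 with array weights, 9 with only the groups compared, 13 on 8 arrays, 27 with the receptor covariate, 1 with the smooth muscle covariate, 43 with medians and spreads equal, 22 with the block and 0 without the muscle-rich arrays, and 1 to 22 with 1 array left out.

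Between genotypes in water, the 4 clock genes became 2 with the receptor covariate, medians and spreads equal or without the muscle-rich arrays, and 1 with the block. Over all genes 6725 became 2429 at 0.01, 2118 with quantile normalization, 10771 with array weights, 459 with the receptor covariate, 1726 with the smooth muscle covariate, 2494 with medians and spreads equal, 118 with the block and 147 without the muscle-rich arrays, and 2948 to 9384 with 1 array left out. Under DSS, 0 became 1 clock gene and 6184 genes with array weights, and 0 to 2 genes with 1 array left out. The iterations of the array weights did not converge. Every comparison used the same weights, so this limit holds for all counts given with array weights. For the difference of responses, 2 clock genes became 0 with quantile normalization, medians and spreads equal or without the muscle-rich arrays. Over all genes 542 became 136 at 0.01, 0 with quantile normalization, 133 with trend and robust moderation, 7675 with array weights, 332 with the smooth muscle covariate, 0 with medians and spreads equal, 217 with the block and 0 without the muscle-rich arrays, and 177 to 3178 with 1 array left out.

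For the average response, 5 clock genes became 3 at 0.01, 2 with medians and spreads equal and 1 (Npas2) without the muscle-rich arrays, and 3 to 5 with 1 array left out. Over all genes 990 became 373 at 0.01, 444 with quantile normalization, 654 with trend and robust moderation, 6618 with array weights, 1638 with the receptor covariate, 233 with medians and spreads equal, 640 with the block and 9 without the muscle-rich arrays, and 511 to 3132 with 1 array left out. The activating minus the other genes in wild-type water, -1.35, was -0.75 with quantile normalization, -0.65 with medians and spreads equal and -0.71 without Dbp, Cry1 and Clock, and in Parp1-/- DSS 0.94 became 1.59 with medians and spreads equal. The cause of these changes was not tested. Without the muscle-rich arrays, Parp1-/- water has 1 array, which is assumed to vary like the others. The fit of 8 arrays could be made only for the comparisons without wild-type water. No paired analysis was possible because the labels give the groups no shared replicate numbers.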
